A study of Arabidopsis thaliana with 12 samples.

Results

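The loci AT2G27420, AT1G64500, AT3G48460, AT3G16670 and AT3G56290 carry 5 of the 7 named transcripts whose level in Arabidopsis rosette leaves was at least 2-fold lower 5 min after mechanical wounding. They were chosen by that measurement, as spots annotated to listed loci whose mean log2 ratio over 3 biological replicates lay at or beyond the 2-fold mark, so the size and sign of their falls are given as a description with no test. Each locus had 1 spot and all 5 were measured, among 20072 tested genes and spots, of which 8734 had a gene name. In all, 28 genes and spots, 0.139% of those tested, met the same 2-fold mark.

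Arabidopsis thaliana plants of ecotype Col (Columbia-0 in the study's methods) were grown in soil to 3 weeks of age. They either had all rosette leaves wounded with a hemostat, which damaged a minor part of the leaf, or were left not wounded. The leaves of pooled plants were collected after 5 min. Both groups are of the same ecotype. Each of 3 biological replicates, a wounded and a not wounded pool, was hybridised to 4 two-colour arrays, on which the wounded RNA was labelled with Cy5 on 2 arrays and with Cy3 on the other 2. A pool averages over plants, so plant-to-plant spread was not measured.

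A transcript falls when it is degraded faster than new copies are made, and over a few minutes a fall requires that the existing RNA be short-lived or be actively removed. In whole leaves, less RNA per cell and fewer cells that hold it cannot be told apart. The named functions of the members are diverse. AT2G27420 encodes a cysteine proteinase of the papain family, enzymes that cut proteins in vacuoles, lytic compartments and the cell wall space. AT1G64500 encodes THRUMIN1, a protein with a glutaredoxin-like domain that bundles actin at the plasma membrane and is needed for chloroplasts to move in response to light. AT3G48460 belongs to the GDSL family of lipases and acylhydrolases, AT3G16670 to the pollen Ole e 1 allergen and extensin family of secreted proteins, and no role is given here for AT3G56290.

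AT2G27420, the papain-type proteinase, had the lowest mean ratio of all 20072 tested genes and spots. Its processed signal in the wounded pools was 1519, 1003 and 642.1 in replicates 1, 2 and 3 (geometric mean of 4 arrays), and 5636, 3814 and 2248 in the pools that were not wounded. Over the 12 arrays the wounded signal ranged from 534 to 1580 and the signal without wounding from 1620 to 6010, so the 2 sets of values did not overlap. On the log2 scale the ratio (wounded over not wounded) was -1.89, -1.93 and -1.81 in the 3 replicates, with a mean of -1.88 ± 0.06 (SD, n = 3), which is 3.67-fold lower, or 27.3% of the level in the pools that were not wounded. The replicates differed from each other by at most 0.12 on the log2 scale, whereas single arrays ranged from -2.49 through a median of -1.89 to -1.08.

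AT1G64500, the actin-bundling THRUMIN1, had the second lowest mean ratio among named genes and the eighth lowest among all genes and spots tested. Its signal was 28780, 20340 and 12900 in the wounded pools against 62100, 55830 and 36770 in the not wounded pools. On the 12 arrays the wounded signal spanned 10800 to 30100 and the other 30200 to 70900, which left the ranges adjacent but separate. The log2 ratio was -1.11, -1.46 and -1.51, with a mean of -1.36 ± 0.22 (SD, n = 3), a level 2.56-fold lower. Of the 5 members it varied most between replicates, with an SD above that of 79.4% of the tested genes and spots, and replicate 1 gave the smaller fall.

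AT3G48460, the GDSL lipase, fell by nearly the same amount wherever it was measured. Its signal was 6601, 5876 and 3566 in the wounded pools and 14040, 13100 and 7885 in the pools that were not wounded. The log2 ratio was -1.09, -1.16 and -1.14, with a mean of -1.13 ± 0.04 (SD, n = 3), a level 2.19-fold lower. Single arrays ranged only from -1.31 through -1.13 to -1.01, and each of the 12 arrays showed at least a 2-fold difference. The wounded signals, 3320 to 6990, lay below the not wounded signals, 7420 to 14500.

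AT3G16670, of the Ole e 1 and extensin family, had steady replicate means and widely scattered arrays. Its signal was 10740, 7306 and 4146 in the wounded pools and 21450, 14680 and 9087 without wounding. The log2 ratio was -1.0, -1.01 and -1.13, with a mean of -1.05 ± 0.08 (SD, n = 3), a level 2.06-fold lower. On single arrays it ran from -1.82 through a median of -1.0 to -0.19, and 6 of 12 arrays reached a 2-fold difference. The wounded signals, 2970 to 12300, overlapped the not wounded signals, 7480 to 24100, which set it apart from the other members.

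AT3G56290 was the member nearest the 2-fold mark. Its signal was 6370, 5493 and 3691 in the wounded pools and 13350, 11320 and 7297 in the not wounded pools. The log2 ratio was -1.07, -1.04 and -0.98, with a mean of -1.03 ± 0.04 (SD, n = 3), a level 2.04-fold lower. Its 12 arrays lay between -1.29 and -0.68, and the wounded signals, 3010 to 6560, stayed below the not wounded signals, 7010 to 13800.

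**Figure D1:**
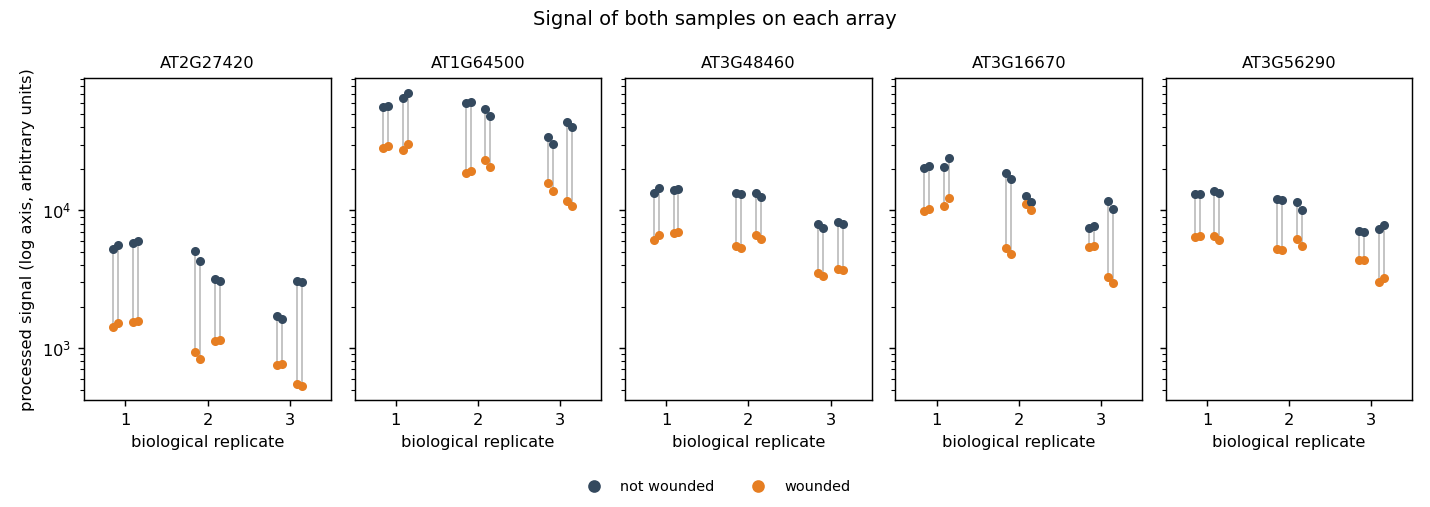
Processed signal (log axis, arbitrary units) of the wounded and the not wounded sample on each of 12 arrays, in 1 panel per gene, with the 2 samples of an array joined by a grey line; within a replicate, the 2 arrays that carried wounded RNA in Cy5 stand on the left. The wounded signal was the lower of the 2 on every array, and the signals of both samples were lower in replicate 3 than in replicate 1.

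All 5 members were lower on 12 of 12 arrays, against 6.73% of all tested genes and spots, and for 4 of the 5 the highest wounded signal lay below the lowest not wounded signal, against 0.0448%. Both shares describe the contrast that chose the members, so nothing is read from them. In 3 of the 5 members, AT2G27420, AT1G64500 and AT3G48460, each of the 3 replicates showed at least a 2-fold fall. For AT3G16670 and AT3G56290 some replicates fell just short of it or lay on the mark. In no member was either signal within the range of dim spots on any array. The signals of both samples were lower in replicate 3, and the members' signals dropped by more than the median of all tested genes and spots. In the not wounded pools that median was 393.9 in replicate 3 against 483.0 in replicate 1, while the signal of AT2G27420 was 2248 against 5636. Some genes outside the members, such as HYH (AT3G17609) and UF3GT (AT5G54060), also dropped by more than the median, so the drop was not particular to the members.

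The 2-fold mark divides a continuous series. Inside it stood 2 further named genes, AT1G06000, a rhamnosyltransferase of flavonol synthesis, at -1.13 ± 0.08 (SD, n = 3) and HYH (AT3G17609), a bZIP transcription factor related to HY5, at -1.05 ± 0.16. The other 21 inside it were spots with no single gene name in the annotation used here. Just outside were AT4G38710 and UF3GT (AT5G54060), an anthocyanin glycosyltransferase, each at -0.97, and AT5G62840 at -0.94. AT3G56290 at -1.03 was the innermost member, and it was separated from AT4G38710 by less than the SD of AT4G38710, 0.11.

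The ratios of single arrays differed according to the dye that carried the wounded sample, and the direction of that difference changed between replicates. Arrays whose wounded RNA was in Cy5 are called Cy5 arrays here, and the others Cy3 arrays. The dye effect of a gene in a replicate is its log2 ratio on the Cy5 arrays minus that on the Cy3 arrays, divided by 2. The mean that chose the members gives both orientations equal weight, so the members were not picked on their dye effect, but its size and sign went with the size and sign of the change, as described below. For AT2G27420 the Cy5 arrays of replicate 1 gave a log2 ratio of -1.87 and the Cy3 arrays -1.91. In replicate 2 the values were -2.39 and -1.47, and in replicate 3 they were -1.13 and -2.48. The orientation that gave the larger fall in replicate 2 thus gave the smaller one in replicate 3.

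AT3G16670 showed the same reversal at greater size. Its log2 ratio was -1.03 on Cy5 and -0.96 on Cy3 arrays in replicate 1, -1.82 and -0.19 in replicate 2, and -0.46 and -1.80 in replicate 3. The Cy3 arrays of replicate 2 and the Cy5 arrays of replicate 3 alone fell short of the 2-fold mark by a wide margin. AT1G64500 gave -0.97 and -1.25, then -1.67 and -1.25, then -1.12 and -1.90 in the 3 replicates. AT3G56290 gave -1.02 and -1.11, -1.21 and -0.88, and -0.68 and -1.29. AT3G48460 was the exception, at -1.14 and -1.04, -1.30 and -1.02, and -1.17 and -1.12, with the larger fall on the Cy5 arrays each time.

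**Figure D2:**
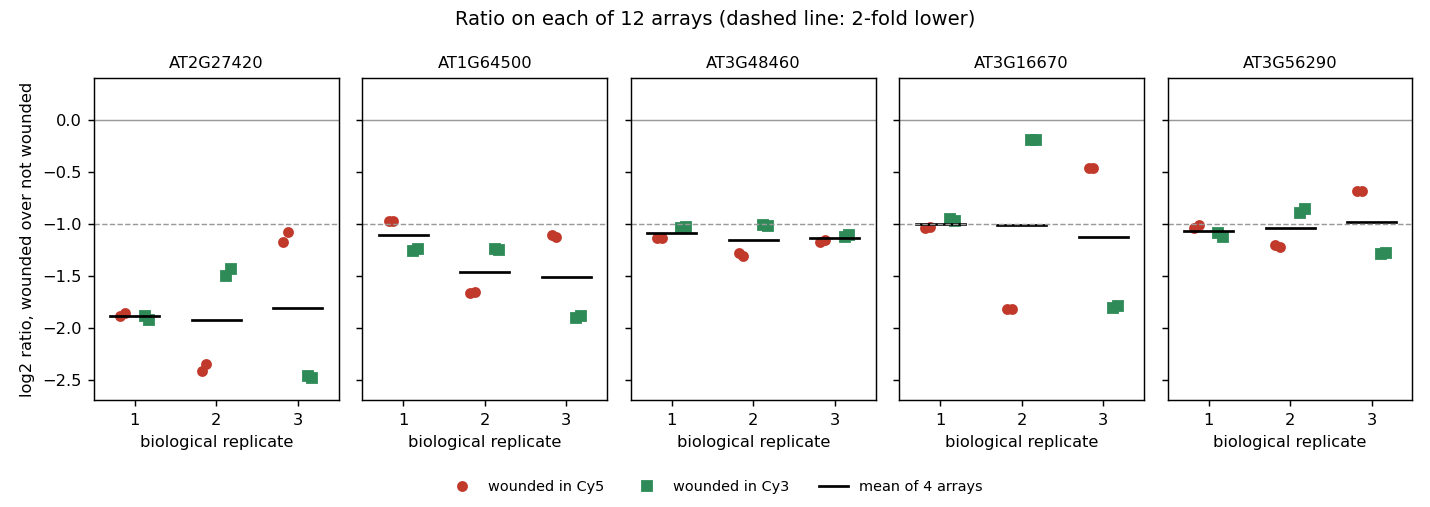
Log2 ratio of wounded over not wounded on each of 12 arrays, in 1 panel per gene, by biological replicate and by the dye of the wounded sample (red circles, Cy5; green squares, Cy3); black bars are means of 4 arrays and the dashed line is a 2-fold fall. All points lie below 0, technical duplicates nearly coincide, and the orientations separate in opposite directions in replicates 2 and 3 for every gene except AT3G48460.

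Averaged over replicates, the dye effect of the members was small. Its means were 0.08 for AT2G27420, 0.11 for AT1G64500, -0.07 for AT3G48460, -0.06 for AT3G16670 and 0.06 for AT3G56290. None of the 5 passed limma's test against 0 after Benjamini-Hochberg adjustment over all genes and spots (adjusted p from 0.42 to 0.90), beside 23.8% of all genes and spots. A count of 0 among 5 lies near that share, so nothing is read from it. Without adjustment, too, 0 of 5 had a p under 0.05. The 95% intervals ran from -0.97 to 0.85 for AT3G16670, from -0.63 to 0.78 for AT2G27420 and from -0.24 to 0.10 for AT3G48460. The mean dye effects of AT3G16670 and AT2G27420 are thus poorly known with 3 replicates.

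The dye effect differed between the 3 replicates in 5 of 5 members, and it did so in 57.5% of all genes and spots, by an F test in limma against the spread between technical duplicates. This test was chosen after the values of single arrays were seen. The adjusted p was 1.1e-05 for AT2G27420, 1.8e-05 for AT1G64500, 0.0066 for AT3G48460, 5.2e-07 for AT3G16670 and 5e-05 for AT3G56290. Technical duplicates of the same orientation differed by at most 0.10 on the log2 scale for AT2G27420 and by at most 0.04 for the other members. Against so small a spread, small differences passed too, as for AT3G48460 with dye effects of -0.05, -0.14 and -0.02. Over all 20072 genes and spots the dye effects still correlated between replicates. The r was 0.96 for replicates 1 and 2, 0.88 for 1 and 3, and 0.84 for 2 and 3. In 4 of 5 members, all but AT3G48460, the dye effect had opposite signs in replicates 2 and 3, against 27.2% of all genes and spots.

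The same pattern appeared across the transcripts that changed most. Among the 28 genes and spots at least 2-fold lower, which include the members, the median log2 ratio in replicate 2 was -1.50 on Cy5 arrays and -1.07 on Cy3 arrays, and 25 of 28 gave the larger fall in Cy5. In replicate 3 the medians were -0.85 and -1.50, and 2 of 28 did so. Among the 141 genes and spots at least 2-fold higher, the medians were 1.65 and 1.14 in replicate 2, where 127 of 141 were larger in Cy5. In replicate 3 they were 1.17 and 1.30, and 49 of 141 were larger in Cy5. By their medians, falls and rises were both larger in Cy5 in replicate 2 and both larger in Cy3 in replicate 3, the rises of replicate 3 less uniformly. Over all 20072 genes and spots, 9878 had a ratio larger in size on Cy5 arrays in replicate 2 and 9592 in replicate 3. In replicate 1 the medians were -1.10 and -1.16 for the falls, closer than in the other replicates, and 1.59 and 1.44 for the rises.

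**Figure D3:**
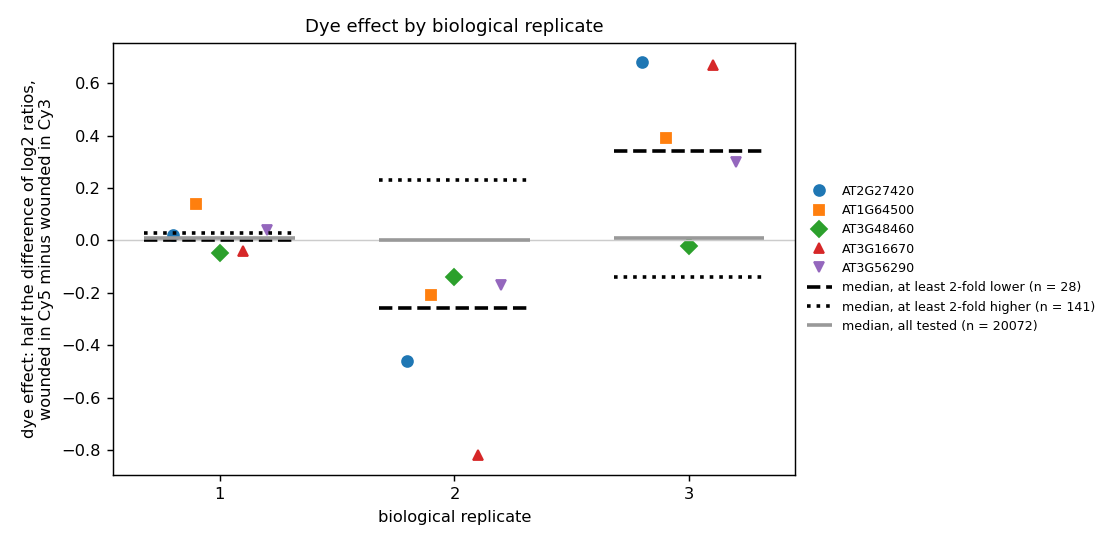
Dye effect (log2 ratio on Cy5 arrays minus that on Cy3 arrays, divided by 2) by biological replicate for the 5 genes (markers), with the median of the 28 genes and spots at least 2-fold lower (dashed), the 141 at least 2-fold higher (dotted) and all 20072 tested (grey). The genes lie between -0.05 and 0.14 in replicate 1, below 0 in replicate 2 and, except AT3G48460, above 0 in replicate 3, while the median of the rises moves the opposite way and the median of all stays at or near 0.

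The channel label of 1 array of replicate 3 gives the wounded sample another number than the array's title does, and the title was followed here. Without it the mean of AT2G27420 was -1.87 and that of AT1G64500 was -1.36. Which pools and which dye each array carried rests on the labels alone, and their part in the reversal was not tested. Taken by orientation, the members' means over replicates differed less than single arrays did. On Cy5 arrays alone they ranged from -1.80 for AT2G27420 to -0.97 for AT3G56290, and on Cy3 arrays alone from -1.95 for AT2G27420 to -0.99 for AT3G16670, so that 3 of 5 members reached the 2-fold mark in both orientations, AT3G56290 missing it on Cy5 arrays and AT3G16670 on Cy3 arrays.

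The members were next compared with the named genes whose 12 log2 ratios resembled theirs most, by the root mean square difference over arrays. This is a description, since resemblance in sign and size follows from the choice of members. AT3G56290 lay nearest to UF3GT, at a difference of 0.14, and to HYH, at 0.17. AT3G48460 lay nearest to AT3G56290 and to AT1G06000, each at 0.23. AT1G64500 lay nearest to AT3G48460, at 0.38, and to AT3G56290, at 0.40. AT3G16670, with its large dye effects, lay nearest to AT4G38710, at 0.36, and to SAG29 (AT5G13170), a sugar transporter of the SWEET family, at 0.39. AT2G27420 had no close named gene by this measure, the nearest being AT1G64500 at 0.60 and AT1G06000 at 0.81. The measure includes the distance between means, which were -1.88 for AT2G27420, -1.36 for AT1G64500 and -1.13 for AT1G06000. The lack of a close named gene thus follows largely from the lowest mean and does not describe the pattern over arrays.

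An unnamed spot, number 19892 on the array, resembled AT2G27420 far more closely, at 0.13. Its log2 ratio was -1.83, -1.88 and -1.72 in the 3 replicates, the second lowest mean of all, and its dye effect was -0.08, -0.49 and 0.70 where that of AT2G27420 was 0.02, -0.46 and 0.68. Which transcript the spot measures is not given in the sources used here. The other members, too, each had an unnamed spot nearer than their nearest named gene. It lay at 0.19 for AT1G64500, 0.17 for AT3G48460, 0.35 for AT3G16670 and 0.10 for AT3G56290. Unnamed spots were reported after their values were seen.

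Of the 10 genes directly beside the members on their chromosomes, 4 were tested, and none of these lies beside AT2G27420 or AT3G16670. At an adjusted p under 0.05 in limma 0 of 4 passed in either direction, where 7.24% of all genes and spots were lower and 7.25% higher, so the count shows nothing particular to the neighbours. Beside AT1G64500, AT1G64490 had log2 ratios of -0.83, -0.25 and -0.26, a mean of -0.45 ± 0.33 (SD, n = 3, adjusted p = 0.098), and AT1G64510 a mean of 0.18 ± 0.03 (adjusted p = 0.10). AT3G48450, beside AT3G48460, had a mean of -0.11 ± 0.13 (adjusted p = 0.36), and AT3G56300, beside AT3G56290, a mean of -0.13 ± 0.03 (adjusted p = 0.19). Of the members, 3 lie on chromosome 3, and none is next to another.

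Other papain-like cysteine protease genes moved the opposite way from AT2G27420 or did not pass the test. Of 31 such genes besides AT2G27420, 12 were tested, and 5 rose while 0 fell at an adjusted p under 0.05 in limma, against 7.25% of all genes and spots that rose and 7.24% that fell. At an unadjusted p under 0.05 the counts were also 5 and 0. Their median log2 ratio was 0.07, beside 0.0046 over all genes and spots. AT2G21430, a protease of the RD19 type, had log2 ratios of 0.74, 0.70 and 0.70, a mean of 0.71 ± 0.02 (SD, n = 3, adjusted p = 0.011). AT4G01610, a cathepsin B-like protease, had 0.76, 0.67 and 0.61, a mean of 0.68 ± 0.08 (adjusted p = 0.014). These are rises of 1.64-fold and 1.60-fold, and both genes were higher on 12 of 12 arrays.

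AT1G02300, also cathepsin B-like, had a mean log2 ratio of 0.51 ± 0.03 (adjusted p = 0.016), and AT4G16190, of the RD19 type, a mean of 0.55 ± 0.16 (adjusted p = 0.023). The fifth, AT3G19400, named after its values were seen, had 0.81, 0.53 and 0.37, a mean of 0.57 ± 0.22 (adjusted p = 0.031), with 0.32 on Cy5 arrays alone (adjusted p = 0.20) and 0.82 on Cy3 arrays alone. The remaining 7 lay between -0.15 and 0.10. In the wounded sample AT1G06260 was in the range of dim spots on 6 of 12 arrays, AT3G19390 on 5, AT4G23520 on 2 and CP1 (AT4G36880) on 1. In the not wounded sample AT1G06260, AT3G19390 and AT4G23520 were so on 4, 6 and 3 arrays, so a change in these would be hard to see. Leaving out replicate 2 or 3 cost calls: without replicate 2, 0 of the 5 passed (adjusted p from 0.056 to 0.12), and without replicate 3, 2 did. Without replicate 1 all 5 still passed (adjusted p from 0.041 to 0.049).

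**Figure D4:**
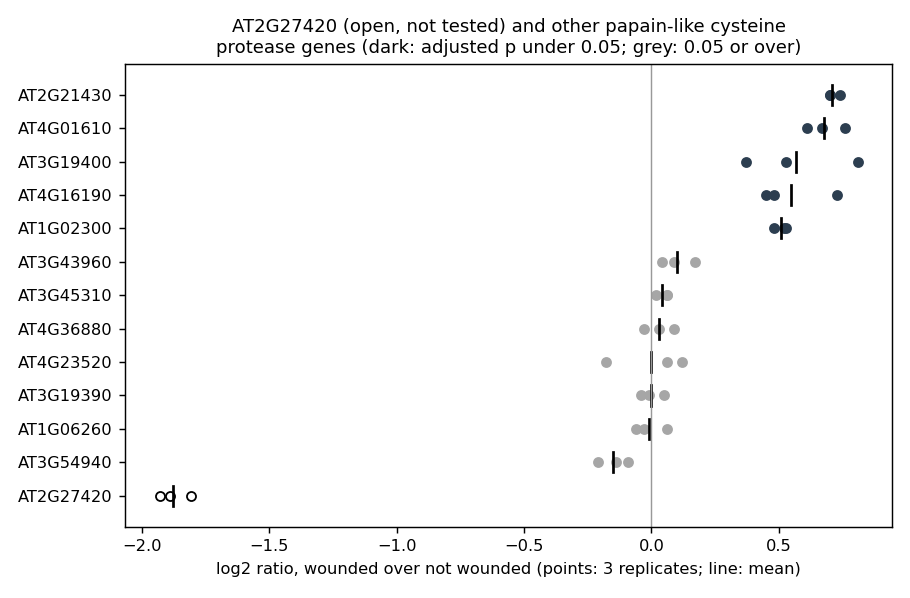
Log2 ratio of wounded over not wounded in 3 biological replicates (points) with their mean (line) for AT2G27420 (open circles) and the 12 other papain-like cysteine protease genes tested. AT2G27420 lies near -1.88, 5 genes that passed the test lie between 0.37 and 0.81 in each replicate, and the means of the other 7 lie between -0.15 and 0.10.

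Glutaredoxin genes, small redox proteins that reduce disulfides with glutathione and the family named in the annotation of AT1G64500, gave counts near those of all genes and spots. Of 42 besides AT1G64500, 27 were tested, and 1 rose and 0 fell, against 7.25% and 7.24% of all tested, with a median log2 ratio of -0.04. GRX480 (AT1G28480), which binds TGA transcription factors, had log2 ratios of 0.55, 0.60 and 0.36, a mean of 0.50 ± 0.13 (SD, n = 3, adjusted p = 0.022), and no longer passed without any 1 of the replicates (adjusted p 0.060, 0.12 and 0.057 without replicates 1, 2 and 3). On Cy5 arrays alone its mean was 0.22 (adjusted p = 0.27) and on Cy3 arrays alone 0.78. Without adjustment, 3 had a p under 0.05 with a higher level and 1 with a lower level.

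For the process in which AT1G64500 acts, chloroplast movement, 2 of 13 listed genes were tested and 0 passed in either direction at an adjusted or an unadjusted p under 0.05, a count that shows little beside the 7.24% and 7.25% of all tested. They were AT5G67385 at -0.15 ± 0.29 and AT5G20610 at 0.02 ± 0.15 (SD, n = 3). Of 9 GDSL lipase genes found by name besides AT3G48460, AT1G54010 was tested, at 0.05 ± 0.75 (adjusted p = 0.92). Of 14 circadian clock genes, GIGANTEA (GI, AT1G22770) was tested, at 0.35 ± 0.10 (adjusted p = 0.037), a call lost without any 1 of the replicates (adjusted p from 0.068 to 0.16) and on Cy5 arrays alone, where its mean was 0.12 (adjusted p = 0.49). Its signal was in the range of dim spots on 9 of 12 arrays in the not wounded sample. These lists are thinly covered by named spots and describe the genes tested, not the pathways.

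Of 16 markers of leaf photosynthetic tissue 3 were tested, and their signals were above the range of dim spots on all 12 arrays. Of 5 root markers 2 were tested, PYK10 and EXPA7, and PYK10 was in that range in the not wounded sample of 1 array and EXPA7 on none. Signals of different probes cannot be compared as levels, so these spots do not rank the tissues. Of the leaf markers, RCA, the Rubisco activase, fell in the wounded pools, with log2 ratios of -0.23, -0.60 and -0.51, a mean of -0.45 ± 0.19 (SD, n = 3, adjusted p = 0.041). LHCB4.2 had a mean of -0.10 and LHCB4.1 one of -0.03, and neither passed. The call of RCA was lost under 5 alternatives, without replicate 2 (adjusted p = 0.18), without replicate 3 (0.13), with no filter (0.057), on Cy5 arrays alone (0.059) and with technical replicate 1 alone (0.064). Its part in the falls of the members was not tested. No marker of guard cells, epidermis, vascular tissue or flowers had a named spot.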

How the data were processed

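RNA of 3 wounded and 3 not wounded pools was compared on 12 two-colour arrays, and the channel labels gave each sample's dye. The authors made the deposited intensity values with Agilent Feature Extraction 8.1, by background subtraction and dye normalization on housekeeping genes. The authors also deposited log10 ratios of Cy5 over Cy3, which hold exactly 0 at dim spots. Control spots stay in the fit, since no flag (control, saturation or background) was used here. No genome build is named, and no coordinates are given.

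Kept were spots that, in each of 6 dye-swap pairs, had a deposited ratio other than 0 on 1 or both arrays. Of 22575 spots, 20135 were kept. The log2 ratios were computed from the intensities, turned to wounded over not wounded and averaged over the 4 arrays of a replicate, and over several spots for 60 genes. Arrays of 1 replicate carry the same pools, and nothing more is said of separate cultures, so p-values measure the spread between 3 pairs of pools. In R 4.3.3, limma 3.58.1 (lmFit, eBayes, n = 3) tested each mean against 0, and p-values were adjusted by Benjamini-Hochberg over all 20072 tested. The dye effect was tested likewise. Its difference between replicates was an F test over 12 arrays in replicate-by-orientation cells. The functions were tested on simulated data. A dim spot is one under the 95th percentile of the signals of spots with a deposited ratio of 0 on that array. Signal of the spot limits single ratios, and the number of pools limits the means.

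Of all spots, 9335 had 1 gene in the platform annotation, 40 had several and 13200 had none. Names were updated by Entrez identifier, which matched for 9317, in a TAIR10.1 gene table that also gave the neighbours. Family lists hold locus numbers, and the GDSL list the symbols and synonyms of that table. A search of those symbols and synonyms for the Ole e 1 family matched no gene, not even the member, so other genes of that family were not examined. A search of promoters for letters was not run, because no sequences were used here. Named are the members, the 2 named genes most like each, tested neighbours, up to 4 passing genes a list and the named genes beside the 2-fold mark. The members and lists were chosen with earlier results of these data known. Alternatives were other scalings, filters, orientations and replicate sets.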

Additional observations from a re-analysis of the deposited data

Results flagged for a closer look

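The difference between the dye orientations was not the same in the 3 biological replicates in any of the 5 members (F test in limma, adjusted p = 1.1e-05 for AT2G27420, 1.8e-05 for AT1G64500, 0.0066 for AT3G48460, 5.2e-07 for AT3G16670 and 5e-05 for AT3G56290). The same held for 11536 of the 20072 genes and spots, so it is no property of the members alone. The test takes its error from technical duplicates, and its part in the means was not tested.

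AT1G64510, the neighbour of AT1G64500, had 1 array far from the others among the 6 with the wounded sample in Cy3, with a gap of 0.75 of the range. It was 1 of 46 groups of arrays examined, and chance flags about 1 in 20.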

How the results depend on the processing

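The members kept their direction under all 18 alternatives, with log2 ratios of -1.95 to -1.80 for AT2G27420, -1.48 to -1.25 for AT1G64500, -1.20 to -1.06 for AT3G48460, -1.11 to -0.99 for AT3G16670 and -1.09 to -0.97 for AT3G56290. They were chosen by this ratio and each was lower on 12 of 12 arrays. Leaving out arrays could therefore not change their direction, and nothing is read from it. The dye effect averaged over replicates reversed without replicate 3 for AT2G27420 (range without 1 replicate -0.22 to 0.35), AT1G64500 (-0.04 to 0.26) and AT3G56290 (-0.06 to 0.17), and without replicate 2 for AT3G16670 (-0.43 to 0.32). The dye effect passed in no member under any alternative. The number of genes and spots with a dye effect was 338 without replicate 1, 1626 without replicate 2, 6639 without replicate 3 and 7837 with no replicate block. That the dye effect differs between replicates held for 5 of 5 members under 4 alternatives, added after the data were seen.

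The counts over all genes depended on the fit. Without 1 replicate, 51 to 1683 genes and spots fell and 139 to 1479 rose. The lowest counts, 51 and 139, came without replicate 2, and without replicate 3 there were 220 and 334. With the wounded sample in Cy5 only, 3145 were called lower and 2837 higher, and in Cy3 only 3234 and 3847. A single orientation does not cancel the dye effect, so these calls mix it with wounding. With technical replicate 2 only, 961 fell. The pools on the arrays of a replicate are the same by the labels, so the arrays are paired. With all 12 arrays singly and a replicate block 3046 fell and 3095 rose, and with 6 technical replicates and a replicate block 2570 and 2533. Deviations of a replicate's 2 orientations from their group means correlated with r of 0.14, -0.43 and -0.64 in replicates 1, 2 and 3. Within replicate 2, and likewise within replicate 3, the 2 orientations thus tended to deviate in opposite directions.

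Among papain-like proteases, 0 to 5 rose without 1 replicate (0 without replicate 2, 2 without replicate 3), and 3 were called lower with Cy5 only. As above, calls with Cy5 only or Cy3 only, here and below, mix the dye effect with wounding. Glutaredoxins that rose numbered 2 with an offset of 50, with the dimmest 25% left out and with Cy3 only, 0 to 4 without 1 replicate, and 4 and 3 with the replicate block on 12 arrays and on 6 technical replicates. Those that fell numbered 1 with the offset, with Cy5 only, with Cy3 only and on 6 technical replicates, and 2 on 12 arrays. A chloroplast movement gene fell without replicate 1 (count 1, otherwise 0). The clock gene GI was itself among the genes removed, and so not tested, with the dimmest 25% left out. It passed in 0 cases with loess, with no filter, with Cy5 only, without any 1 replicate, with either technical replicate only, and on 6 technical replicates with the replicate block. The cause was not tested, apart from the fewer pools left when a replicate is left out.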
